A study of Homo sapiens with 4 samples.

Results

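The transcripts described here are 6 genes that mark cell types other than plasma cells and that nevertheless had a value in the myeloma cell line ARP-1, which derives from a person with multiple myeloma. They are GNLY and TRAC (T and NK cells), ITGAX (myeloid cells), FN1 (stromal cells), and CLDN3 and KRT18 (epithelial cells), 6 of 15201 genes in the table. They were picked by name with their levels in these libraries and their differences between the groups already known, so their values are a description, and where it is said that one passed the threshold of the fit over all genes, that supports nothing. All 6 also reached the minimum mean level for testing, 1 FPKM across the 4 libraries, ITGAX and KRT18 only through the WT libraries. FPKM counts sequenced fragments relative to transcript length and library size, so levels of different genes can be set side by side. Cells labelled wild-type (WT, n = 2 libraries) were compared with cells labelled as resistant to carfilzomib (CfzR, n = 2), an inhibitor of the proteasome. Every library is from ARP-1 cells, and the labels give no drug dose, no length of exposure, and no statement on whether the resistant cells are a clone or a pool.

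A differentiated cell keeps most genes of other lineages silent. Plasma cells silence much of the B cell program as they mature, and myeloma cells can carry transcripts of other lineages. Granulysin (GNLY) is a pore-forming protein of cytotoxic granules, and TRAC encodes the constant part of the T cell receptor alpha chain. ITGAX encodes the integrin alpha chain of dendritic cells and macrophages known as CD11c, which reaches the cell surface paired with ITGB2. Fibronectin (FN1) is a matrix protein bound by integrins, claudin 3 (CLDN3) is a membrane protein of tight junctions, and keratin 18 (KRT18) forms filaments of simple epithelia together with keratin 8.

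Promoter sequence was at hand for 3 of the 6 genes, and it is shown because these genes differ in both directions and in base composition. Each line gives the 250 bases before the gene's start in RefSeq (GRCh38.p14), 5′ to 3′ on the gene's strand, with motif matches in capitals. The motifs searched on both strands were TATAA (the TATA box core), GGGCGG (the GC box), TGACGTCA (the cyclic AMP response element), TGACTCA (the AP-1 site) and CCAAT. Neighbouring GC box matches can overlap.
GNLY, chr2:85694108-85694357, plus strand: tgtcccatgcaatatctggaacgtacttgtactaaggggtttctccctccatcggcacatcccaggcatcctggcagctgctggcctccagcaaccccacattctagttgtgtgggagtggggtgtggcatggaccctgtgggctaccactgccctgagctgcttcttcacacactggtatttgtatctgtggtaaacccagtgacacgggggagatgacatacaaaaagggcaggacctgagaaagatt
FN1, chr2:215436069-215436318, minus strand: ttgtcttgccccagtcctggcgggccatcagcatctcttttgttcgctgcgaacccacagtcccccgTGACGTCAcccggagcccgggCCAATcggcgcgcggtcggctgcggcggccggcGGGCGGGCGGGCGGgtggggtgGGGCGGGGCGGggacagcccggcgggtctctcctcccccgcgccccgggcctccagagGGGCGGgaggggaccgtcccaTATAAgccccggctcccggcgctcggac
CLDN3, chr7:73770271-73770520, minus strand: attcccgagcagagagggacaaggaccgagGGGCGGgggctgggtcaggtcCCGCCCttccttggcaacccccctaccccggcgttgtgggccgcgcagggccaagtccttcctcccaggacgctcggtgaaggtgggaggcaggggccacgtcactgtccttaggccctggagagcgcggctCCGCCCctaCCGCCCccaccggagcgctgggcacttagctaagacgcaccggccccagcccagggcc
The GNLY window held none of the 5 motifs and 3 CpG dinucleotides, and 4.67% of 8966 promoters of tested genes held that few or fewer. It lies inside the span that GENCODE gives for GNLY, which begins further upstream. The part of the FN1 window nearest the RefSeq start, which holds the TATAA match, likewise lies inside the GENCODE span of FN1. The FN1 window held 32 CpG, 6 GC box matches, 1 match to TGACGTCA, 1 to CCAAT and 1 to TATAA, the last beginning 28 bases before the start. The CLDN3 window held 19 CpG and 4 GC box matches. Over the 8966 promoters the median was 22 CpG, and the share with a match was 68.7% for the GC box, 35.8% for CCAAT, 9.88% for TATAA, 3.07% for TGACGTCA and 2.25% for TGACTCA. GC content was 53.6% for GNLY, 76.4% for FN1 and 71.6% for CLDN3, against a median of 65.2%. A match is a description of the letters and does not show that a factor binds.

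The labelled cell type was checked against 24 B and plasma cell markers, of which 12 had a value. IGKC, the kappa light chain, stood at 11836 ± 2817 FPKM in WT and 15695 ± 2844 in CfzR (SD, n = 2 each), followed by JCHAIN, which joins polymeric antibodies, and the secretory transcription factor XBP1. The B cell genes MS4A1 and PAX5 had no value, and neither had TNFRSF13B, DERL3, FCRL5 and IGHG1 of the same list. CD79A, a B cell gene, stood at 0.566 and 0.921 FPKM in the WT libraries against 0.456 and 0.533 in the CfzR libraries. Of 11 markers of this list that were tested, 1 was higher in CfzR and 0 lower, against 0.246% and 0.104% of all genes tested. It was SLAMF7, a plasma cell surface receptor (4.10 ± 0.22 SE in log2, limma adjusted p = 5.25e-04). SLAMF7 stood at 0.282 and 0.198 FPKM in the WT libraries against 22.1 and 18.7 in the CfzR libraries. Sums of FPKM ran from 673265 in CfzR replicate 1 to 955284 in WT replicate 2. The gap between the CfzR libraries followed transcript length over 12896 genes, with a Spearman coefficient of 0.466 (CfzR replicate 1 minus 2), while the WT pair gave 0.146. In bulk RNA, fewer cells with a transcript and less of it per cell cannot be told apart.

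In every one of the 6 genes the WT and CfzR libraries did not overlap, with 3 higher in CfzR (TRAC, FN1, CLDN3) and 3 lower (GNLY, ITGAX, KRT18). Over 13411 genes tested the groups did not overlap for 44.7%. With limma, 47 genes or 0.350% passed an adjusted p of 0.05 (0.246% higher and 0.104% lower), and GNLY alone of the 6 was among them, in the lower direction. Because the genes were chosen with these values known, nothing is read from either count. With WT replicate 1 left out TRAC and ITGAX passed as well (log2 fold changes 1.43 and -1.46), and with WT replicate 2 left out ITGAX passed (-1.57). Over all genes, 260 and 148 passed in those fits, and 16 and 17 with CfzR replicate 1 or 2 left out instead. The summed level of the 6 genes was 46.5 and 42.4 FPKM in the first and second WT library, against 39.3 and 40.7 in the first and second CfzR library.

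**Figure D1:**
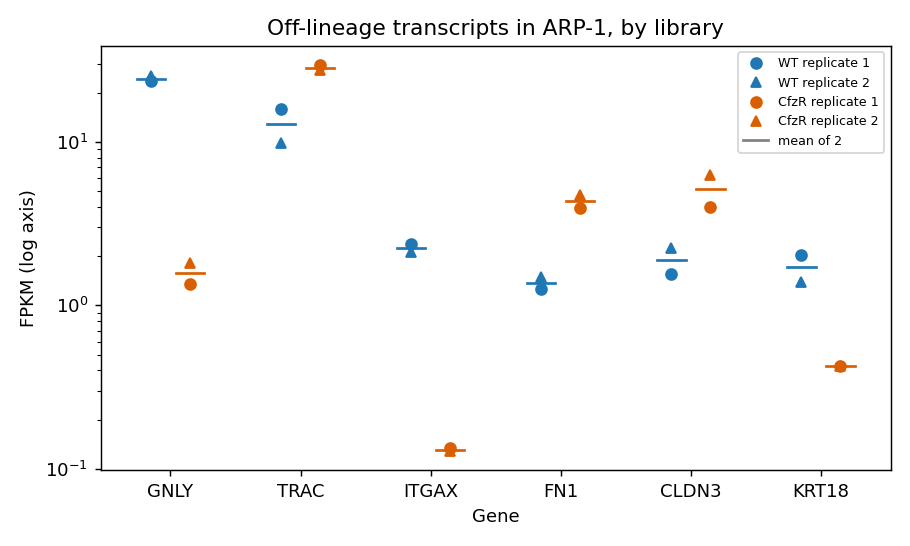
FPKM on a log axis of the 6 off-lineage transcripts in each library (circles replicate 1, triangles replicate 2, lines the mean of 2; WT blue, CfzR orange). In each gene both CfzR libraries lie on the same side of both WT libraries, with the widest separations in ITGAX and GNLY.

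GNLY (ENSG00000115523, chromosome 2, 85685175 to 85698854, plus strand, GENCODE release 29 on GRCh38) was the most abundant of the 6 in WT and fell in CfzR. It stood at 23.4 and 25.2 FPKM in the first and second WT library, against 1.35 and 1.80 in the first and second CfzR library. The WT libraries differed from each other by 1.08 times, while the lower WT value was 13.0 times the higher CfzR value. Means were 24.3 ± 1.28 and 1.58 ± 0.318 FPKM (SD, n = 2 each), a level 15.4-fold lower in CfzR. On the log2(FPKM + 1) scale the difference was -3.30 (SE 0.21), the 13th largest in size among all genes tested. In terms of rank among all 15201 genes, GNLY moved from the percentile 73.1 in WT to 19.2 in CfzR.

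The other genes of the cytolytic granule gave 0 calls in either direction. Of 15 listed as partners of GNLY, 7 had a value and 6 were tested (2 at an unadjusted p under 0.05, against 11.1% of all genes tested; the list median in log2 was -0.29 against -0.02 over all genes tested). Perforin (PRF1), the granzymes GZMA, GZMB, GZMH and GZMK, and NKG7 had no value. GZMM, a granzyme, stood at 1.03 and 0.42 FPKM in the WT libraries against 0.23 and 1.85 in the CfzR libraries, so its groups overlapped. SRGN, the proteoglycan that packs granule contents, stood at 656 ± 93.1 FPKM in WT and 386 ± 1.60 in CfzR (-0.75 ± 0.27 SE in log2, adjusted p = 0.369). CTSC, the protease that activates granzymes, was at 162 ± 8.20 and 161 ± 2.57 FPKM (adjusted p = 0.988).

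CST7, a cysteine protease inhibitor of cytotoxic cells, stood at 48.7 and 46.8 FPKM in the WT libraries against 35.0 and 37.5 in the CfzR libraries (-0.39 ± 0.19 SE in log2, adjusted p = 0.496). The membrane protein LAMP1 and the vesicle transport GTPase RAB27A differed by 0.03 and -0.18 in log2 (adjusted p = 0.961 and 0.728, respectively). CTSW, a cysteine protease of NK and cytotoxic T cells, was named after its values were seen. It stood at 5.0 and 7.71 FPKM in the WT libraries against 1.06 and 1.54 in the CfzR libraries, groups that did not overlap (-1.66 ± 0.27 SE in log2, adjusted p = 0.0848). With WT replicate 1 or 2 left out the log2 fold change of CTSW was -1.93 or -1.39, and with CfzR replicate 1 or 2 left out -1.51 or -1.81. With the replicate number as a block, where 1242 genes passed in all, limma gave CTSW an adjusted p of 5.12e-08. In the other alternatives that kept every library and tested CTSW, it ran from 0.0726 to 0.103.

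TRAC (ENSG00000277734, chromosome 14, 22547506 to 22552154, plus strand) was higher in both CfzR libraries. It stood at 15.9 and 9.90 FPKM in the first and second WT library, against 29.4 and 27.4 in the first and second CfzR library. The WT pair was the more spread, at 1.61 times between its libraries against 1.08 times in CfzR, and the lower CfzR value was 1.72 times the higher WT value. Means were 12.9 ± 4.25 and 28.4 ± 1.46 FPKM (SD, n = 2 each), 2.20-fold higher in CfzR, with a log2 fold change of 1.11 (SE 0.25).

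TRDC, the constant gene of the T cell receptor delta chain, lies 81.7 kb before TRAC on the same strand and is its nearest neighbour with a value on that side. It stood at 6.24 and 5.96 FPKM in the WT libraries against 11.6 and 11.3 in the CfzR libraries (0.82 ± 0.19 SE in log2, adjusted p = 0.188). The ratio of TRAC to TRDC was 2.55 and 1.66 in the WT libraries and 2.53 and 2.41 in the CfzR libraries, so the groups overlapped in it. On the other side, the noncoding RNA LINC02332 stood at 0.67 and 1.73 FPKM in the WT libraries against 0.70 and 1.59 in the CfzR libraries (-0.03 in log2, adjusted p = 0.983).

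The rest of the T cell receptor complex was mostly without a value. Of 14 partner genes 3 had one, TRDC, ZAP70 and RAG1, and 0 of the 2 tested passed in limma (1 at an unadjusted p under 0.05, against 11.1% of all genes; the list median in log2 was 0.45). The beta constant genes TRBC1 and TRBC2, the signalling chains CD3D, CD3E, CD3G and CD247, and the kinase LCK had none. ZAP70, the kinase that CD3 chains recruit, stood at 1.39 ± 0.251 and 1.55 ± 0.379 FPKM (adjusted p = 0.901), and the recombinase gene RAG1 at 0.346 ± 0.112 and 0.763 ± 0.393, under the filter. Among the 7 T cell receptor gene segments with a value, 5 were variable segments of the gamma locus and none was a variable or joining segment of the alpha or delta locus. The gamma segment with the highest WT mean, TRGV2, stood at 1.19 and 2.45 FPKM in the WT libraries against 0.963 and 1.20 in the CfzR libraries.

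ITGAX (ENSG00000140678, chromosome 16, 31355134 to 31382997, plus strand) showed the largest plain fold of the 6. It stood at 2.36 and 2.10 FPKM in the first and second WT library, against 0.133 and 0.129 in the first and second CfzR library. Both pairs were tight, at 1.12 and 1.04 times between libraries, and the lower WT value was 15.8 times the higher CfzR value. Means were 2.23 ± 0.180 and 0.131 ± 0.00347 FPKM (SD, n = 2 each), 17.0-fold lower in CfzR. Because the level was low, the log2 fold change depended on the pseudocount and was -1.51 (SE 0.25) with 1 FPKM, -3.33 with 0.1 and -0.49 with 5.

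ITGB2, the beta chain with which the ITGAX product pairs, was low in every library, at 0.62 and 0.58 FPKM in the WT libraries against 0.24 and 0.56 in the CfzR libraries. It lay under the filter and was named after its values were seen. The ratio of ITGAX to ITGB2 was 3.80 and 3.60 in WT and 0.551 and 0.230 in CfzR. Of 12 leukocyte integrin genes and ligands 8 had a value, and 0 of 7 tested passed in limma (1 at an unadjusted p under 0.05, against 11.1% of all genes; the list median in log2 was -0.02). ITGAM, the close relative that marks monocytes and granulocytes, had no value.

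Other integrin chains stood far above ITGAX. ITGB7, the beta chain of the gut-homing integrin, was at 1167 ± 89.4 FPKM in WT and 1048 ± 66.7 in CfzR (-0.15 in log2, adjusted p = 0.855). ITGAL, the alpha chain of LFA-1, stood at 73.2 and 66.3 FPKM in the WT libraries against 101 and 86.4 in the CfzR libraries (0.42 ± 0.21 SE in log2, adjusted p = 0.501). The ratio of ITGAL to ITGAX was 31.0 and 31.5 in WT and 757 and 672 in CfzR. The adhesion ligand ICAM2 differed by -0.50 in log2 (adjusted p = 0.446), and the integrin activators FERMT3 and TLN1 had -0.33 and 0.11 (adjusted p = 0.598 and 0.889).

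FN1 (ENSG00000115414, chromosome 2, 215360440 to 215436172, minus strand), whose promoter letters are given above, had the lowest WT mean of the 6. It stood at 1.26 and 1.49 FPKM in the first and second WT library, against 3.95 and 4.71 in the first and second CfzR library. Both pairs differed by 1.19 times within the group, and the lower CfzR value was 2.64 times the higher WT value. Means were 1.38 ± 0.167 and 4.33 ± 0.543 FPKM (SD, n = 2 each), 3.15-fold higher in CfzR, with a log2 fold change of 1.16 (SE 0.23).

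Of 19 fibronectin receptors and matrix genes 7 had a value, and 0 of 6 tested passed in limma, with 0 at an unadjusted p under 0.05 (11.1% of all genes) and a median log2 fold change of 0.11. The level of the receptor chains ranged widely. ITGA5, the alpha chain of the classical fibronectin receptor, named after its values were seen, stood at 1.84 and 0.879 FPKM in the WT libraries against 0.911 and 0.732 in the CfzR libraries (-0.35 ± 0.30 SE in log2, adjusted p = 0.667). ITGA4, the alpha chain of VLA-4, stood at 89.6 ± 2.47 FPKM in WT and 127 ± 23.7 in CfzR (0.48 ± 0.23 SE in log2, adjusted p = 0.485). Its partner ITGB1 stood at 36.8 ± 0.405 and 37.1 ± 11.9 (adjusted p = 0.977), and ITGB5 at 68.2 ± 3.83 and 81.1 ± 0.518 (adjusted p = 0.645). ITGAV, an alpha chain of several matrix receptors, and the matrix protease MMP14 differed by 0.33 and -0.45 in log2 (adjusted p = 0.587 and 0.558, respectively). The fibrillar collagens COL1A1 and COL3A1 had no value.

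CLDN3 (ENSG00000165215, chromosome 7, 73768997 to 73770270, minus strand) was higher in CfzR, with the widest spread within CfzR of the 6 genes. It stood at 1.56 and 2.25 FPKM in the first and second WT library, against 4.01 and 6.26 in the first and second CfzR library. The libraries differed by 1.44 times within WT and 1.56 times within CfzR, against 1.79 times between the highest WT and the lowest CfzR library. Means were 1.90 ± 0.488 and 5.14 ± 1.59 FPKM (SD, n = 2 each), 2.70-fold higher in CfzR, with a log2 fold change of 1.07 (SE 0.27).

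Of 23 claudins and tight junction genes 8 had a value, and 0 of 8 passed in limma (2 at an unadjusted p under 0.05, against 11.1% of all genes; the list median in log2 was 0.21). The claudins CLDN1, CLDN4 and CLDN7 and occludin (OCLN), common partners in epithelial junctions, had no value. CLDN15, another claudin, stood at 18.7 ± 3.84 and 18.5 ± 4.96 FPKM (-0.02 in log2, adjusted p = 0.978), and CLDND1, a claudin-like protein, at 156 ± 7.71 and 143 ± 19.0 (adjusted p = 0.828). The scaffold gene TJP3 differed by 0.07 in log2 (adjusted p = 0.930). PARD3, a polarity protein, stood at 37.9 and 70.0 FPKM in the WT libraries against 21.2 and 29.4 in the CfzR libraries (-1.02 ± 0.32 SE in log2, adjusted p = 0.317). F11R, the junctional adhesion molecule JAM-A, named after its values were seen, stood at 3.21 and 3.60 FPKM in the WT libraries against 7.82 and 6.07 in the CfzR libraries (0.84 ± 0.22 SE in log2, adjusted p = 0.236).

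KRT18 (ENSG00000111057, chromosome 12, 52948871 to 52952901, plus strand) stood at 2.02 and 1.39 FPKM in the first and second WT library, against 0.424 and 0.425 in the first and second CfzR library. The CfzR libraries were nearly equal, and the lower WT value was 3.28 times the higher CfzR value. Means were 1.71 ± 0.446 and 0.425 ± 0.000936 FPKM (SD, n = 2 each), 4.02-fold lower in CfzR, with a log2 fold change of -0.92 (SE 0.27). The log2 fold change was -1.76 with a pseudocount of 0.1 FPKM and -0.30 with 5. The level is uncertain for 2 reasons. Near-identical keratin 18 pseudogenes exist, and 0 genes named as such had a value here. KRT18 also overlaps KRT8 by 1083 bases on the opposite strand in GENCODE, while the use of strand in counting is not given in the sources used here.

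KRT8, the usual filament partner of keratin 18, stood at 4.25 and 5.39 FPKM in the WT libraries against 1.67 and 3.28 in the CfzR libraries (-0.78 ± 0.29 SE in log2, adjusted p = 0.394). Its groups did not overlap either. The ratio of KRT8 to KRT18 was 2.10 and 3.87 in WT and 3.94 and 7.70 in CfzR. KRT8P12, a pseudogene of KRT8, stood at 2.11 and 2.55 FPKM in the WT libraries against 2.65 and 3.37 in the CfzR libraries, so it lay on the opposite side from its parent. Of 23 keratins and filament linkers 8 had a value, and 0 of 8 passed in limma (1 at an unadjusted p under 0.05, against 11.1% of all genes; the list median in log2 was -0.09).

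KRT7, another keratin of simple epithelia, named after its values were seen, stood at 0.693 and 0.679 FPKM in the WT libraries against 2.06 and 0.883 in the CfzR libraries (0.51 ± 0.31 SE in log2, adjusted p = 0.562). Its WT level was below that of KRT18. VIM, the intermediate filament protein of mesenchymal and blood cells, stood at 2341 ± 298 FPKM in WT and 1791 ± 252 in CfzR (-0.39 ± 0.37 SE in log2, adjusted p = 0.692). KRT10, a keratin of the epidermis, was at 19.3 ± 1.09 and 22.0 ± 2.83 FPKM (adjusted p = 0.737), and KRT86, a hair keratin, at 14.5 ± 2.54 and 11.6 ± 3.95 (adjusted p = 0.655). The junction plaque gene PKP2 and the filament-binding gene TCHP differed by 0.27 and -0.18 in log2 (adjusted p = 0.648 and 0.780, respectively).

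**Figure D2:**
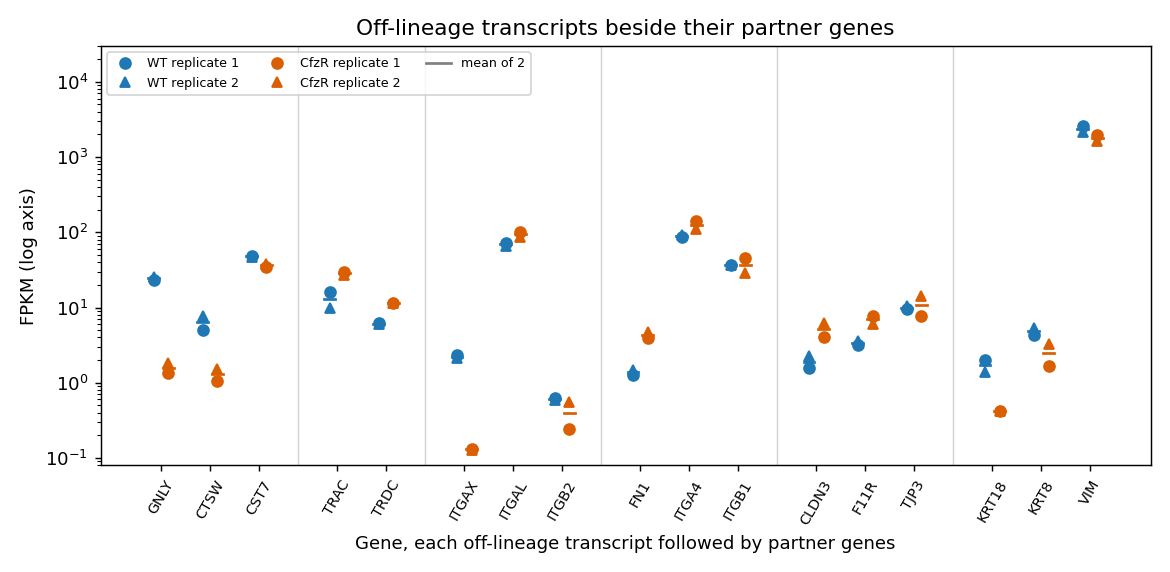
FPKM on a log axis of each off-lineage transcript, followed by selected partner genes (circles replicate 1, triangles replicate 2, lines the mean of 2; WT blue, CfzR orange). CTSW, CST7, TRDC, ITGB2, ITGA4, F11R, KRT8 and VIM lie on the same side as the transcript they follow. None of those tested passed the threshold, and ITGB2 was not tested. ITGAL lies on the opposite side, and in ITGB1 and TJP3 the groups overlap. ITGAL, ITGA4 and VIM stand far above the transcript they follow.

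The order of the 6 levels differed between the groups. In WT, GNLY (24.3 FPKM) was followed by TRAC (12.9), ITGAX (2.23), CLDN3 (1.90), KRT18 (1.71) and FN1 (1.38). GNLY, TRAC and ITGAX were separated by more than the range of their libraries, while ITGAX and CLDN3, CLDN3 and KRT18, and KRT18 and FN1 overlapped. In CfzR the order was TRAC (28.4), CLDN3 (5.14), FN1 (4.33), GNLY (1.58), KRT18 (0.425) and ITGAX (0.131). There CLDN3 and FN1 overlapped, and the other neighbours in the order did not. In percentiles of the mean over all 15201 genes, the 6 lay between 18.2 (FN1) and 73.1 (GNLY) in WT, and between 0.362 (ITGAX) and 76.8 (TRAC) in CfzR.

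The wider sets of markers of other cell types were mostly without a value. Of 149 genes in 5 such lists 31 had a value, and 23 of the 31 had a WT mean under 10 FPKM. Leaving out the 6 transcripts, 22 were tested, 0 passed in limma and 5 had an unadjusted p under 0.05, against 11.1% of all genes tested. The groups did not overlap for 13 of the 22 (59.1%, against 44.7% of all genes tested). The median size of the log2 fold change among the 22 was 0.40 against 0.24 over all genes tested, and their median was 0.08. The lists were chosen with earlier results known, and some of their genes are also made by plasma cells and myeloma cells, among them VIM, CD28 and NCAM1.

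Of 38 T and NK cell markers 11 had a value. Of 10 tested, 1 was lower (GNLY) and 0 higher, against 0.104% and 0.246% of all genes tested. At an unadjusted p under 0.05 in limma were 4 (11.1% of all genes), and the median log2 fold change was 0.12. Of those 4, GNLY and TRAC were chosen with their differences known, and the others were TRDC and CTSW. The list summed to 217 and 223 FPKM in WT against 186 and 190 in CfzR. Without GNLY and TRAC it summed to 178 and 188 in WT and 155 and 161 in CfzR. LAT, an adaptor of T cell receptor signalling, led it at 71.2 ± 8.42 and 49.7 ± 15.4 FPKM (adjusted p = 0.495), followed by the costimulatory receptor CD28 at 40.4 ± 0.143 and 45.8 ± 12.3 (adjusted p = 0.812) and by CST7. CD2, CD5, CD7, CD4 and CD8A had no value.

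Of 33 myeloid markers 5 had a value, and of 4 tested 0 passed, with 1 at an unadjusted p under 0.05 (ITGAX itself, chosen with its difference known; 11.1% of all genes) and a median of -0.03. Their sum was 8.94 and 9.37 FPKM in WT against 8.58 and 7.67 in CfzR, and without ITGAX it was 6.58 and 7.27 in WT and 8.45 and 7.55 in CfzR. VCAN, a matrix proteoglycan made by monocytes, stood at 3.20 ± 0.0239 and 3.31 ± 1.23 FPKM (adjusted p = 0.993), and FCER1G, a receptor signalling chain, at 2.21 ± 0.547 and 2.25 ± 1.66 (adjusted p = 0.949). CD14, LYZ, CSF1R, SPI1 and MPO, which define monocytes, macrophages and granulocyte precursors, had no value.

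Of 28 stromal markers 8 had a value, and of 7 tested 0 passed, with 2 at an unadjusted p under 0.05 (COL6A3, and FN1, which was chosen with its difference known; 11.1% of all genes) and a median of 0.08. Besides VIM, which set the list's sum, COL6A3 led, a chain of collagen VI, at 31.2 and 29.5 FPKM in the WT libraries against 50.8 and 48.9 in the CfzR libraries (0.70 ± 0.19 SE in log2, adjusted p = 0.248). Its partner chains COL6A1 and COL6A2 had no value, nor had DCN, LUM and PDGFRA. NT5E, the ectoenzyme CD73, differed by 0.08 in log2 (adjusted p = 0.884). The sum of the list without FN1 was 2602 and 2176 FPKM in WT against 2039 and 1681 in CfzR.

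Of 30 epithelial markers 6 had a value, and all 6 were tested: 0 passed, 3 had an unadjusted p under 0.05 (11.1% of all genes) and the median was -0.33. Of those 3, CLDN3 and KRT18 were chosen with their differences known, and the other was KRT8. MUC1, a mucin also found on activated plasma cells, stood at 15.7 and 15.8 FPKM in the WT libraries against 6.22 and 13.0 in the CfzR libraries (-0.74 ± 0.32 SE in log2, adjusted p = 0.454), followed by TJP3 and KRT8. Without CLDN3 and KRT18 the list summed to 30.1 and 32.3 FPKM in WT against 17.7 and 31.2 in CfzR. EPCAM, CDH1, KRT19, ELF3, ESRP1 and GRHL2, which define epithelial cells, had no value. Of 20 endothelial, erythroid and platelet markers only ESAM, an endothelial adhesion molecule, had a value, at 2.22 and 2.58 FPKM in the WT libraries against 4.55 and 4.44 in the CfzR libraries (0.69 ± 0.22 SE in log2, adjusted p = 0.310). The part of cells of another type in the 6 levels was not tested.

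**Figure D3:**
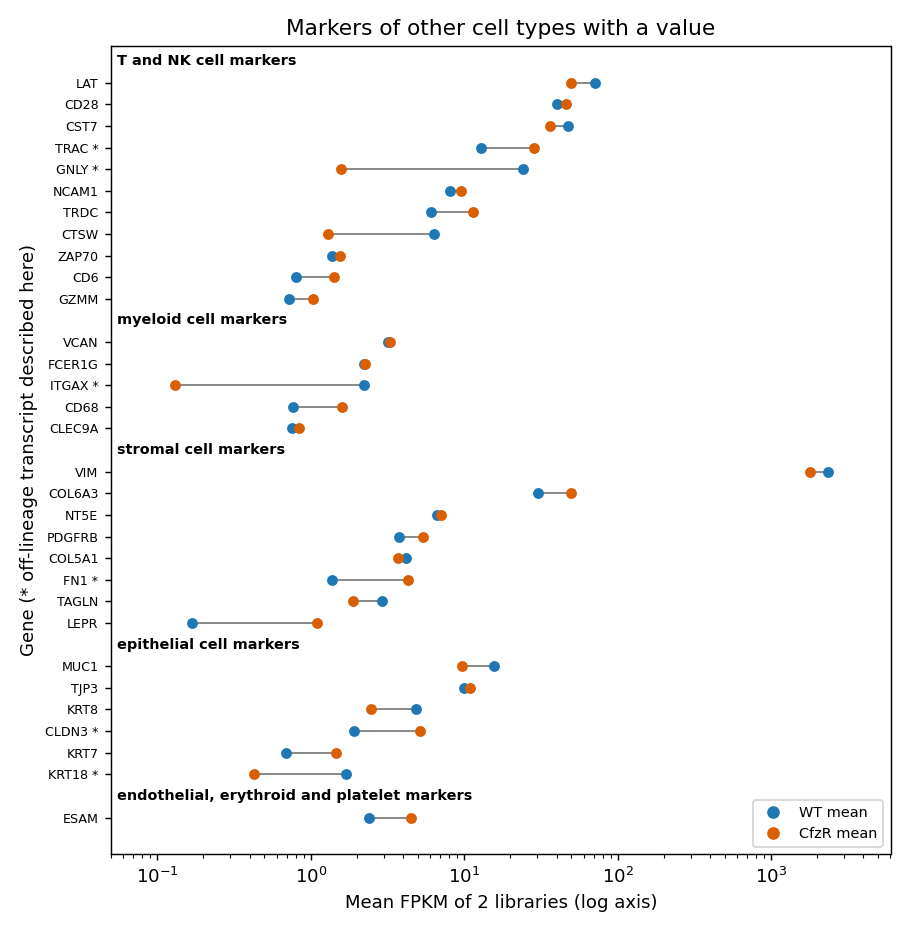
Mean FPKM of 2 libraries per group on a log axis for the 31 markers of other cell types with a value, by list (WT blue, CfzR orange, grey lines join the means; asterisks mark the 6 off-lineage transcripts). GNLY, ITGAX and CTSW have the longest lines towards lower CfzR values, and LEPR the longest towards higher ones from a WT mean of 0.168.

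The 6 genes lie at 6 separate places on chromosomes 2, 7, 12, 14 and 16, with GNLY and FN1 at distant positions on chromosome 2. The nearest genes with a value on either side gave 0 calls. Beside GNLY, C2orf68 and the ganglioside synthase gene ST3GAL5 differed by -0.05 and -0.16 in log2 (adjusted p = 0.946 and 0.746, respectively). Beside ITGAX, PYCARD-AS1 and ENSG00000261474 had -0.39 and -0.39 (adjusted p = 0.552 and 0.712), both uncertain as noncoding transcripts counted with unknown use of strand. Beside FN1, the purine synthesis gene ATIC, 10.7 kb away, stood at 323 and 396 FPKM in the WT libraries against 158 and 295 in the CfzR libraries (-0.72 in log2, adjusted p = 0.489), and MREG had 0.33 (adjusted p = 0.655). Beside CLDN3, ABHD11 had 0.62 and METTL27 0.18 (adjusted p = 0.344 and 0.842), and on the far side of KRT18 the initiation factor gene EIF4B had -0.09 (adjusted p = 0.889).

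Within 1 Mb of the start of each gene 0 other genes passed the threshold in either direction. Around CLDN3, 23 of 25 tested genes had a positive log2 fold change, with a median of 0.50, and for 17 of them (68.0%) both CfzR libraries lay above both WT libraries, against 22.1% of all genes tested. LAT2, a signalling adaptor of B and myeloid cells, stood at 12.5 and 15.3 FPKM in the WT libraries against 33.2 and 34.4 in the CfzR libraries (1.23 ± 0.20 SE in log2, adjusted p = 0.0807), and was the 1 gene there with a larger log2 fold change than CLDN3. The translation factor gene EIF4H differed by 0.95 in log2 (adjusted p = 0.222), DNAJC30 0.85 (0.197) and the kinase gene LIMK1 0.75 (0.237). These 4 were named after their values were seen.

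Around GNLY, 15 of 28 genes (53.6%) had both CfzR libraries below both WT libraries, against 22.6% of all genes tested, with a median log2 fold change of -0.19 and a lowest value of -1.002, so none came near the -3.30 of GNLY. Around ITGAX it was 15 of 52 (28.8%) and around KRT18 9 of 35 (25.7%), with medians of -0.13 and -0.15. The log2 fold changes around KRT18 ran from -1.14 (NR4A1AS, whose groups overlapped) to 0.87, and 1 gene there exceeded KRT18 in size. Around TRAC, 4 of 30 genes (13.3%) lay higher without overlap, TRDC with the largest log2 fold change, and the median was -0.10. Around FN1 it was 2 of 9 (22.2%), with a median of 0.03.

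**Figure D4:**
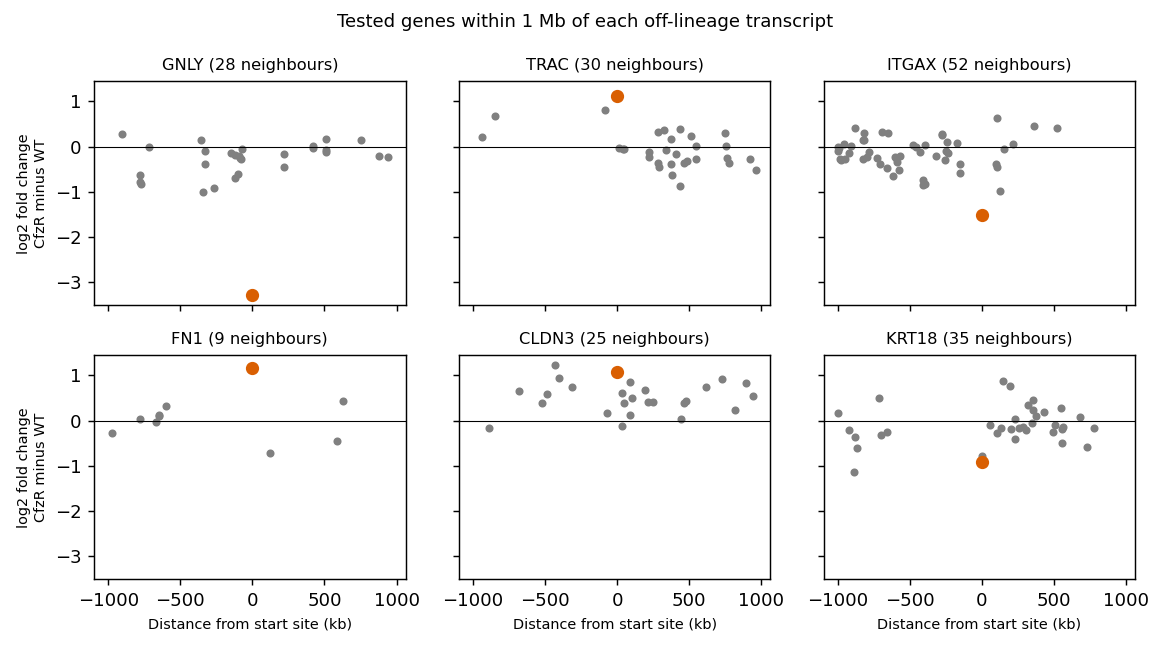
Log2 fold change (CfzR minus WT) of tested genes within 1 Mb of each off-lineage transcript, against distance from its start site in kb along its strand (orange the transcript, grey its neighbours). The 25 neighbours of CLDN3 lie mostly above 0 with a median of 0.50, while GNLY lies apart from its 28 neighbours.

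Genes with the most similar pattern were taken as those with the smallest Euclidean distance over the 4 log2(FPKM + 1) values, for the 5 transcripts with a log2 fold change of at least 1 in size. For GNLY the nearest were the corepressor gene TLE2 (distance 1.58; 11.9 and 13.7 FPKM in WT, 2.82 and 3.51 in CfzR), the noncoding RNA OVAAL (1.75) and RNF149 (1.78). For TRAC the nearest was the transcription factor gene DMTF1 at 0.215 (17.1 and 9.86 FPKM in WT, 33.1 and 29.4 in CfzR), followed by SSBP2 at 0.460 and TMEM14A at 0.470.

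For ITGAX the nearest was the myosin light chain gene MYL9 at 0.123 (2.34 and 2.22 FPKM in WT, 0.0625 and 0.176 in CfzR), then C19orf81 at 0.273 and DNAI4 at 0.301. For FN1 the nearest was the adenosine receptor gene ADORA2A at 0.233 (1.43 and 1.20 FPKM in WT, 4.16 and 5.01 in CfzR), then FIG4 at 0.258 and TMEM59L at 0.314. For CLDN3 the nearest were EXOC3-AS1, MARCHF3 and SMOX at 0.349, 0.368 and 0.373. These likenesses rest on 4 libraries and describe level and pattern only.

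**Figure D5:**
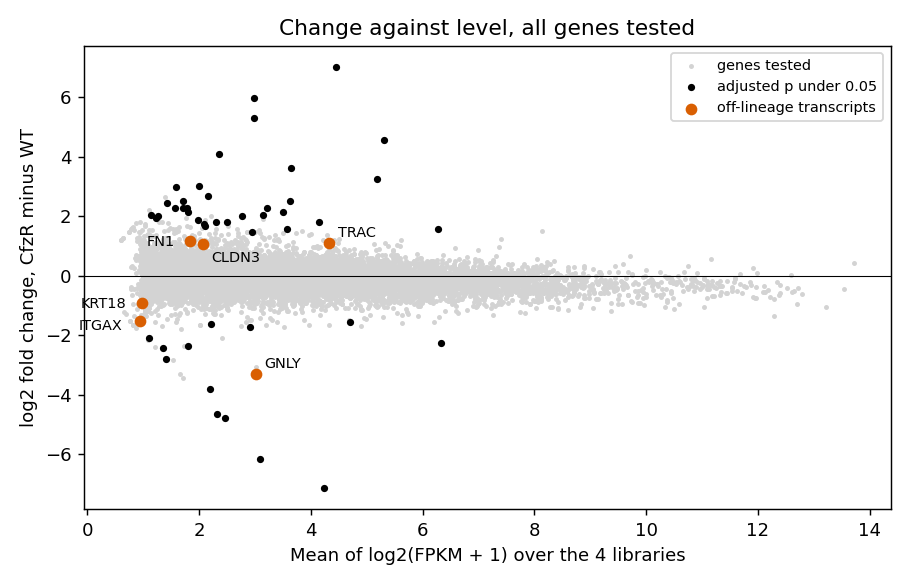
Log2 fold change (CfzR minus WT) against the mean of log2(FPKM + 1) over the 4 libraries for 13411 genes tested (grey), with the 47 at an adjusted p under 0.05 in black and the 6 off-lineage transcripts in orange. GNLY lies at -3.30, and the other 5 lie between -1.51 and 1.16.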

How the data were processed

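RNA was extracted with TRIzol and made into mRNA libraries, per the labels' protocols. The authors deposited 1 table of FPKM values with 4 columns of libraries. The submitters' processing notes name STAR and Cufflinks. Versions, genome build, annotation and use of strand are not stated in the sources used here. Column names of 1 pair carry an abbreviation of the drug. The other pair, named con and taken to mean control, was assigned to WT as the remaining group. The table holds no counts, so depth is unknown. The lowest row mean was 0.500 FPKM, so a gene without a value may have a lower level or may not be analysed here.

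Symbols were matched by gene ID for 13174 of 15201 rows, and GENCODE release 29 (GRCh38) positions for 14496; these positions are not the authors' own. Values were transformed to log2(FPKM + 1), which understates changes of low genes. The 13411 genes averaging 1 FPKM or more were fitted with limma 3.58.1 in R 4.3.3 (eBayes with a mean-variance trend, two-sided, Benjamini-Hochberg over all genes, threshold 0.05). Plain folds are ratios of mean FPKM. The procedure was tested on simulated data. Whether replicates are separate cultures is not stated in the labels, and p-values then reflect library-to-library spread alone, which may be technical. The 4 libraries divide into pairs in 3 ways, so a permutation test cannot go below 0.333. The settings varied were the pseudocount (0.1 and 5), the filter (none and 5 FPKM), scaling by trimmed mean of M-values (TMM) or quantiles, the trend, a replicate block, and the omission of each library.

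The 6 transcripts and all lists were chosen with earlier results of these data known. The text names, per marker list, the 3 members with the highest mean and those past the threshold, per partner list those past the threshold and up to 5 with the highest mean, the nearest gene with a value on either side, and the 3 genes nearest in pattern. Other genes were named after their values were seen, among them GZMM, RAG1, LEPR, KRT8P12, TRGV2 and NCAM1, or as examples without a value. Some list members are not reported here by name.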

Additional observations from a re-analysis of the deposited data

How the results depend on the processing

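All 6 transcripts kept the direction of their difference under every alternative in which they were fitted. Their groups did not overlap, so a change of pseudocount, filter, trend or block, or the omission of a library, could not reverse it. Only the scaling by TMM or quantiles could have done so, and the genes were chosen with their differences known. Log2 fold changes ran from -3.87 to -2.16 for GNLY, 0.80 to 1.43 for TRAC, -3.33 to -0.49 for ITGAX, 0.55 to 1.59 for FN1, 0.55 to 1.38 for CLDN3 and -1.76 to -0.30 for KRT18, with the pseudocount setting the range except for TRAC. GNLY passed the threshold in each of its 12 alternatives. The filter at 5 FPKM removed ITGAX, FN1, CLDN3 and KRT18 and gave 27 genes past the threshold in place of 47. Without the mean-variance trend ITGAX (-1.51) passed too, which made 2 genes of the 5 marker lists in place of 1. With the replicate number as a block, 1242 of 13411 genes passed in all, and 11 of 28 tested in the marker lists. Among the 11 were GNLY (-3.30), TRAC (1.11), ITGAX (-1.51), FN1 (1.16), CLDN3 (1.07) and KRT18 (-0.92), all chosen with their differences known. That fit leaves a single residual degree of freedom per gene. The deviations of same-numbered libraries correlated across genes at 0.252, and no label says that a number marks a shared batch. With 1 library left out, 16 to 260 genes passed in all and 1 to 4 in the marker lists, and log2 fold changes ran from 0.80 to 1.43 for TRAC and from -1.57 to -1.46 for ITGAX. The lone library is then assumed to vary like the other group. The cause of these differences in calls was not tested. The depth of the libraries is unknown, which limits what can be said of values under 1 FPKM.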
